A study of Mus musculus with 12 samples.

Results

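The 34 genes described here carry long-chain fatty acids into cells and oxidise them in mitochondria. They were taken as a list of gene symbols and arranged by step into uptake, the carnitine shuttle, beta-oxidation, electron transfer and regulators. Of the 34 genes 31 were measured, out of 18194 genes with a probe set of their own on the array: 5 of 6 for uptake, 3 of 4 for the carnitine shuttle, 15 of 15 for beta-oxidation, 3 of 3 for electron transfer and 5 of 6 regulators. The muscle isoform Cpt1b was left out because its probe set carries 3 gene symbols, and the acyl-CoA synthetase gene Acsl1 and the uncoupling protein gene Ucp2 were not analysed here.

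Left and right ventricles (LV and RV) of mouse embryos at 14.5 dpc were profiled on 12 Affymetrix arrays, 3 for each of 4 groups. The wild-type (WT) embryos were of strain CD1, and the knockout (KO) embryos were Nos3-/- of strain B6.129P2-Nos3tm1unc/J, a germline deficiency of endothelial nitric oxide synthase in every cell. Ventricles of 15 to 30 embryos were pooled for each array, so p-values measure spread between pools of a group and not between embryos. In the limma fit that spread is shared over the 4 groups and moderated across genes. Every WT pool was CD1 and every KO pool came from the other strain, and the effects of allele and of strain cannot be told apart in any comparison of genotypes. The ventricles are whole tissue, in which fewer cells of a type and less RNA per cell cannot be told apart. Values are log2 expression from RMA, differences are on that scale, and the small number of arrays limits their precision.

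Fatty acids reach heart muscle after lipoprotein lipase, held on the capillary wall by Gpihbp1, frees them from triglycerides, and Cd36 and Fabp3 take them into and through the cell. Carnitine palmitoyltransferases and the carnitine carrier bring them into the mitochondrion, where chain-specific dehydrogenases, hydratases and thiolases shorten them and electron transfer flavoprotein passes the electrons on. The adult heart draws most of its energy from this pathway, whereas the embryonic heart relies more on glucose and lactate, and the nuclear receptor Ppara with its coactivator Ppargc1a drives the genes of oxidation as the heart matures.

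Nuclear receptors of the Ppara and Esrra families bind DNA through the hexamer AGGTCA, so the promoter windows of the members (250 bases before to 50 after the start site, RefSeq, GRCm38.p6) were searched for it on both strands. It was present in 6 of 29 windows of 27 measured members (20.7%), and in 5340 of 32851 windows of all genes (16.3%). The genes with it were Acadm, Acadvl, Cd36, Cpt1a, Echs1 and Ucp3. Its direct repeat with 1 base of any kind between the copies was in 0 of 29 windows and 0.0396% of all windows, and the extended site TCAAGGTCA in 0 of 29 and 0.423%. Both longer motifs contain AGGTCA. The windows of 4 genes with expression values given in full below are shown with the hexamer in capitals, TGACCT being its reverse complement, and the fifth is that of Hadha, which has none.
Acadm (chr3:153944594-153944893, minus strand): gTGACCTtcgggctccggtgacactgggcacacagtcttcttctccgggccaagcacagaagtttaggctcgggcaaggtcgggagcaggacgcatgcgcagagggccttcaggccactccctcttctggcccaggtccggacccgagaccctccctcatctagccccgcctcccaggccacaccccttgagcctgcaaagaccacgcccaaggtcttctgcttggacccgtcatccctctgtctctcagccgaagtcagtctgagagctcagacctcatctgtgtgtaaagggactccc
Acadvl (chr11:70015379-70015678, minus strand): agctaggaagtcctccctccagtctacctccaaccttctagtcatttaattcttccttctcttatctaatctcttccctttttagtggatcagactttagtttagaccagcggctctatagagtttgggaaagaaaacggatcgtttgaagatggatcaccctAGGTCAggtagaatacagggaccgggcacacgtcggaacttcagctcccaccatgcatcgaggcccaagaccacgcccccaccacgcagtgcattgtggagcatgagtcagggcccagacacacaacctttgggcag
Cd36 (chr5:17835847-17836146, minus strand): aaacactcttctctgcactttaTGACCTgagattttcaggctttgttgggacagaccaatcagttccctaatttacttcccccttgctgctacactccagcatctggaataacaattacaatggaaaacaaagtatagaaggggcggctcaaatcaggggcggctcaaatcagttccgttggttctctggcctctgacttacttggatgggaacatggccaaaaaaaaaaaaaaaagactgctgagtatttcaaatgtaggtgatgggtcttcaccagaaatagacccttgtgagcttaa
Echs1 (chr7:140116372-140116671, minus strand): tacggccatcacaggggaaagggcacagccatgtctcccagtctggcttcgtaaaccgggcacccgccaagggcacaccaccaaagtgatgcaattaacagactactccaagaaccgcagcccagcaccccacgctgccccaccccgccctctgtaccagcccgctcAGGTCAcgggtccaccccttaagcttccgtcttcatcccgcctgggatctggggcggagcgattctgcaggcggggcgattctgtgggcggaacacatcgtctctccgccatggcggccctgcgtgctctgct
Hadha (chr5:30154931-30155230, minus strand): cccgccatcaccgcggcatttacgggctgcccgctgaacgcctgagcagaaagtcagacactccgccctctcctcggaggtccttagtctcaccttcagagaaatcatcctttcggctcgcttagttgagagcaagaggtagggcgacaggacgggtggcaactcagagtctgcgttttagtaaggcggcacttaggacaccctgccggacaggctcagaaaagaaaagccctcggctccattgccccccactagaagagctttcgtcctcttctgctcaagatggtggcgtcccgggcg
The hexamer began 249 bases upstream of the start site in Acadm, 228 in Cd36, 87 in Acadvl and 83 in Echs1. Hadha and Hadhb, which encode both subunits of the mitochondrial trifunctional protein, are transcribed in opposite directions, and their windows share 228 identical bases. A match is a description of these letters and was not tested as a binding site.

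Before the genotypes were compared, the arrays were set against each other. Nos3 itself was lower in KO, at 8.30 to 8.39 in WT LV against 7.86 to 8.02 in KO LV and at 8.37 to 8.94 in WT RV against 7.77 to 8.23 in KO RV (exact permutation p = 0.1 in each ventricle, the smallest that 3 against 3 arrays allow). In the fit over all genes the differences were -0.41 and -0.66 (limma adjusted p = 0.0376 and 0.00983). The left one did not pass with median centring (-0.31, adjusted p = 0.0989), with the control term described next (-0.87, adjusted p = 0.0635) or with any array left out (adjusted p from 0.0582 to 0.114). The 27 probe sets for bacterial poly-A transcripts, which are added to the RNA before labelling, averaged 8.26 to 8.35 on the 3 WT LV arrays and WT RV replicate 3, and 6.90 to 7.90 on the other 8 arrays. The hybridization controls were also higher on those 4 arrays, at 11.556 to 11.698 against 11.333 to 11.515. The arrays named below by their high labelling control thus differed in both kinds of control. WT RV replicate 3 also lay with the WT LV arrays on the first principal component of all genes (50.7% of the variance), at -29.4, where WT RV replicates 1 and 2 lay at -8.12 and -10.5, the WT LV arrays at -26.8 to -23.7 and the KO arrays at 15.0 to 28.2. An alternative fit held a term for the high-control arrays, which is estimated from WT RV replicate 3 against the other WT RV arrays alone. In RV it gives the same values as leaving out WT RV replicate 3. Cardiomyocyte genes averaged 13.28 to 13.69 over 16 markers on every array. The 6 measured genes of brown and white fat averaged 4.80 to 5.10, with Ucp1 at 3.48 to 4.09 and Adipoq at 3.39 to 4.03, both under the median of all values, 5.67. Of the same list, Cidea read 6.28 to 7.82, and Prdm16 was higher in KO LV, at a mean of 8.64 against 7.71 (0.93, limma adjusted p = 0.00611, and 0.025 with the control term).

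In the left ventricle, 17 of the 31 fatty acid genes were lower in KO and 0 were higher (limma, adjusted p under 0.05 over all genes). Of all genes, 12.3% were lower and 18.6% higher by the same test. At an unadjusted p under 0.05, 17 members were lower and 2 higher, against 18.5% and 23.1% of all genes. The difference was below 0 for 24 of the 31 members against 52.1% of all genes, and the median difference was -0.25 against -0.01. The genes that passed were 11 of 15 for beta-oxidation, 2 of 3 for electron transfer, 2 of 5 for uptake, 1 of 3 for the carnitine shuttle and 1 of 5 regulators.

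That count depended on single arrays and on the term for the high-control arrays. Leaving out WT LV replicate 3 left 8 members lower, leaving out KO LV replicate 1 left 9, and leaving out KO LV replicate 2 or 3 left 10. Of all genes, 10.2%, 9.7%, 7.81% and 8.67% were lower in these fits, in that order, against 12.3% with all arrays. The 8 members lower in all 6 such fits were Acaa2, Acadm, Acads, Decr1, Ech1, Echs1, Etfa and Etfb, all of beta-oxidation or electron transfer. Acadm did not pass with median centring. Only Acaa2, Acads, Ech1, Echs1, Etfa and Etfb passed in every alternative fit but the one with the control term. With the term for arrays of high labelling control, 0 members passed in either direction, where 0.346% of all genes were lower and 0.737% higher. The difference was then below 0 for 22 members, with a median of -0.17. Gpihbp1, Slc25a20, Eci1 and Ucp3 moved from below to above 0, and Cpt2 and Acadl from above to below 0. With the term the standard errors also grew, for Ech1 from 0.10 to 0.15. The part of the labelling or hybridization of the arrays in the left ventricular differences was not tested, since no WT LV array had a low control.

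**Figure D1:**
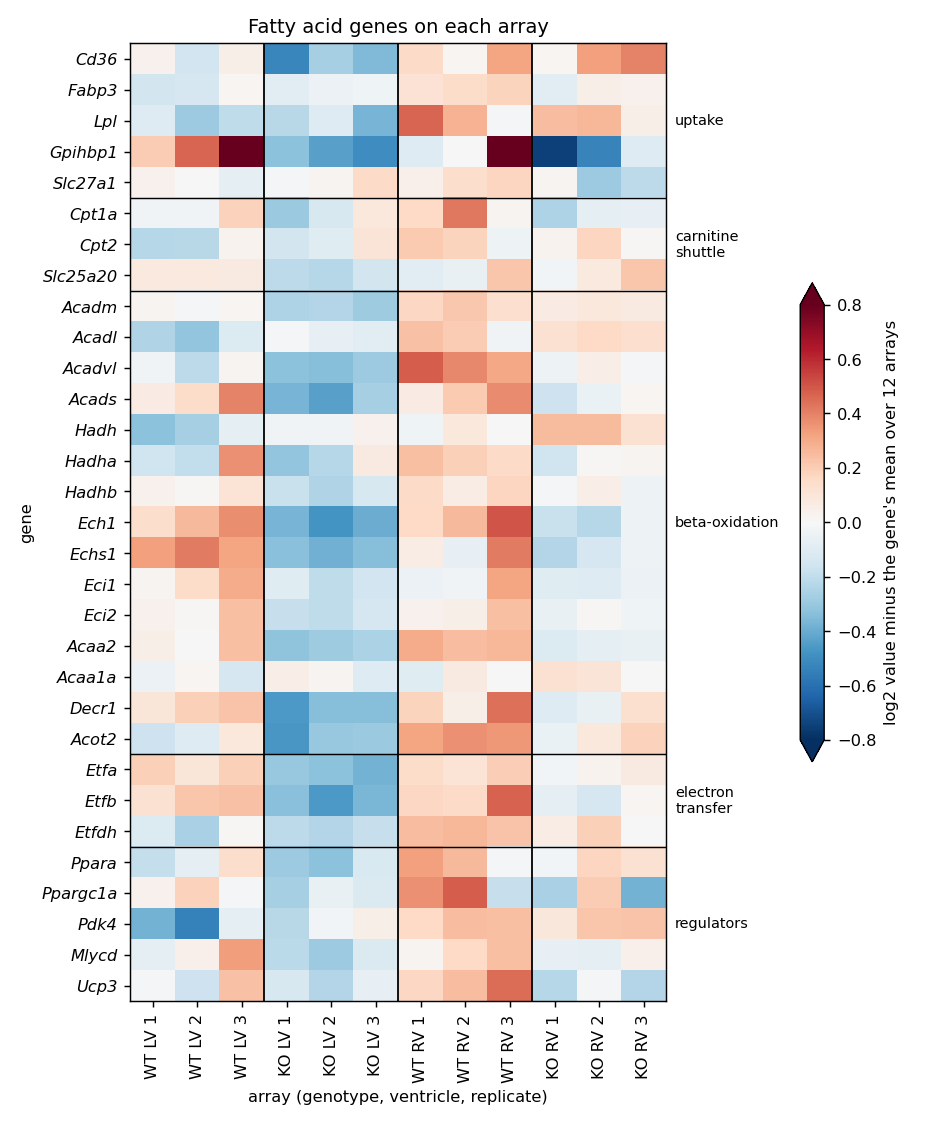
Log2 value of each of the 31 measured genes minus its mean over the 12 arrays, with arrays in columns by group and genes in rows by step from uptake to regulators. Most rows of beta-oxidation and electron transfer are blue on the 3 KO LV arrays, where the mean over all members is -0.24, -0.22 and -0.17, and red on the WT RV arrays, at 0.15, 0.17 and 0.23.

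Averaged over the 31 members, the deviation from each gene's own mean was -0.24, -0.22 and -0.17 on the KO LV arrays and -0.02, -0.02 and 0.15 on the WT LV arrays. It was -0.06, 0.02 and 0.02 on the KO RV arrays and 0.15, 0.17 and 0.23 on the WT RV arrays. The KO LV arrays were thus the lowest of the 12 and the WT RV arrays the highest, and in each ventricle the KO arrays lay below the WT arrays.

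Among uptake genes, Gpihbp1, which anchors lipoprotein lipase to the capillary endothelium, had the largest difference of any member. It read 9.09, 9.35 and 9.96 in WT LV and 8.56, 8.45 and 8.39 in KO LV. The WT arrays were spread over most of a log2 unit while the KO arrays lay close together, and the groups did not overlap. Gpihbp1 was lower in KO LV by a log2 difference of -1.0 (SE 0.27, 95% interval -1.58 to -0.42, limma adjusted p = 0.0124). Without WT LV replicate 3, the highest array, it was -0.75 (adjusted p = 0.0541). With the control term the difference was 0.055 (adjusted p = 0.969). RV values were 8.78, 8.89 and 9.89 for WT and 8.14, 8.35 and 8.78 for KO, a difference of -0.76 that did not pass (adjusted p = 0.094) and was -0.41 without WT RV replicate 3 (adjusted p = 0.315). Of 14 endothelial markers 7 were higher and 2 lower in KO LV, where 18.6% and 12.3% of all genes were, and 0 passed with the control term. Their mean level was 8.60 to 8.92 in WT LV and 9.02 to 9.17 in KO LV. Their part in the Gpihbp1 difference was not tested.

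Cd36, the fatty acid translocase of the cell membrane, read 10.63, 10.44 and 10.64 in WT LV and 10.07, 10.33 and 10.24 in KO LV. The groups did not overlap, and Cd36 was lower in KO by a difference of -0.36 (SE 0.12, limma adjusted p = 0.0342). It passed in 2 of 6 fits with an array left out, with adjusted p from 0.0347 to 0.128, and was -0.13 with the control term (adjusted p = 0.86). Its RV values were 10.75, 10.61 and 10.91 for WT and 10.61, 10.92 and 10.99 for KO. These ranges overlap, and the difference was 0.08 (adjusted p = 0.69). The other probe sets of Cd36 gave -0.33 and -0.25 in the left ventricle.

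Lipoprotein lipase itself, Lpl, read 12.81, 12.62 and 12.71 in WT LV and 12.69, 12.81 and 12.54 in KO LV. RV values were 13.38, 13.19 and 12.90 for WT and 13.16, 13.18 and 12.96 for KO. The genotypes overlapped in both ventricles, with differences of -0.03 and -0.06 and 95% intervals from -0.29 to 0.23 and from -0.32 to 0.20. A second, dimmer probe set gave -0.35 and -0.28, and the control term moved the left ventricular difference to -0.42 (limma adjusted p = 0.335).

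Fabp3, the fatty acid binding protein of heart muscle, read 13.35, 13.36 and 13.51 in WT LV and 13.41, 13.45 and 13.46 in KO LV. On the RV arrays it stood at 13.61, 13.64 and 13.67 for WT and 13.41, 13.54 and 13.53 for KO. The left groups overlapped (difference 0.03, limma adjusted p = 0.789). The right groups did not overlap but the difference of -0.15 did not pass (adjusted p = 0.261). Slc27a1, a fatty acid transport protein, differed by 0.07 in LV and -0.28 in RV, and neither passed.

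In the carnitine shuttle, Slc25a20, the carnitine-acylcarnitine carrier of the inner membrane, read 11.07, 11.07 and 11.06 in WT LV and 10.78, 10.76 and 10.84 in KO LV. The 3 arrays of each group were nearly equal and the groups were apart, with Slc25a20 lower in KO (-0.27, SE 0.10, limma adjusted p = 0.0447). It passed in 0 of 6 fits with an array left out, with adjusted p from 0.0731 to 0.12 and differences from -0.30 to -0.26. With the control term it was 0.02. RV values were 10.90, 10.93 and 11.21 for WT and 10.97, 11.07 and 11.21 for KO, which overlap (0.07, adjusted p = 0.679).

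Cpt1a, the outer-membrane transferase that commits fatty acids to oxidation, read 8.93, 8.93 and 9.14 in WT LV and 8.66, 8.83 and 9.04 in KO LV. It read 9.12, 9.38 and 8.98 in WT RV and 8.71, 8.88 and 8.89 in KO RV. The right groups did not overlap, yet neither difference passed (-0.16 and -0.33, limma adjusted p = 0.359 and 0.106). Its probe sets disagreed in sign: the 2 dimmer ones gave 0.61 and 0.51 in LV and 0.27 and 0.17 in RV, so no direction can be given for Cpt1a. Cpt2, the inner-membrane transferase, differed by 0.09 and -0.05, and by -0.15 in LV with the control term.

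Beta-oxidation held most of the lower genes. Echs1, the short-chain enoyl-CoA hydratase, read 11.63, 11.72 and 11.62 in WT LV and 10.97, 10.92 and 10.96 in KO LV. All WT arrays lay more than 0.6 above all KO arrays, and Echs1 was lower in KO by -0.71 (SE 0.11, limma adjusted p = 0.000537), at 61.3% of WT. On the RV arrays it stood at 11.36, 11.24 and 11.72 for WT and 11.07, 11.17 and 11.26 for KO, where the ranges overlap (-0.27, adjusted p = 0.14). WT RV replicate 3, which read like the WT LV arrays, was 0.42 above the mean of the other WT RV arrays. With the control term the left difference was -0.29 (adjusted p = 0.42), and the right one without that array -0.13.

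Ech1, an auxiliary isomerase for unsaturated fatty acids, was lower in both ventricles. It read 11.45, 11.57 and 11.68 in WT LV and 10.94, 10.83 and 10.91 in KO LV. It read 11.47, 11.57 and 11.81 in WT RV and 11.13, 11.08 and 11.27 in KO RV. The genotypes did not overlap in either ventricle, with differences of -0.67 (SE 0.10, limma adjusted p = 0.00043) and -0.46 (SE 0.10, adjusted p = 0.0146). The left difference passed in every fit with an array left out and was -0.38 with the control term (adjusted p = 0.307). The right one was -0.36 without WT RV replicate 3 (adjusted p = 0.0493), and it did not pass without KO RV replicate 1 (adjusted p = 0.0577) or KO RV replicate 2 (adjusted p = 0.059).

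**Figure D2:**
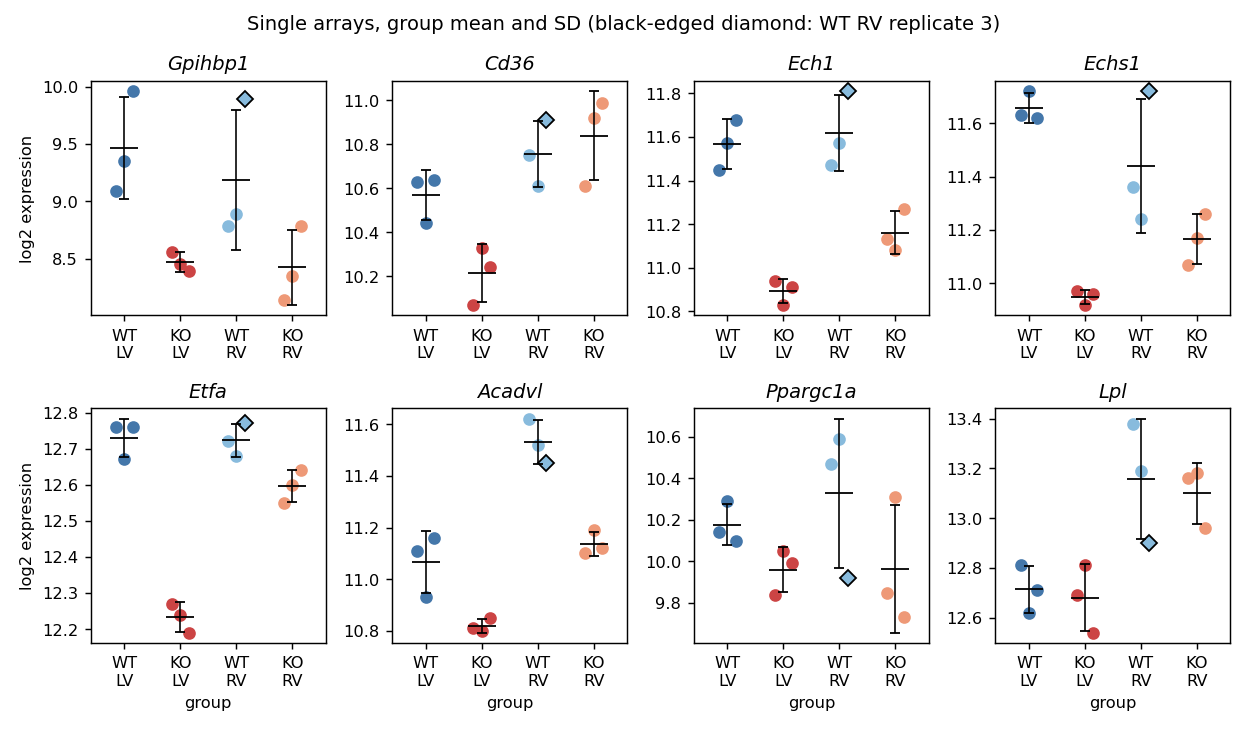
Log2 expression of 8 genes on each array by group, with the group mean and SD as horizontal bars, and WT RV replicate 3 as a black-edged diamond. Ech1, Echs1 and Etfa are apart between genotypes in LV, Gpihbp1 is spread widely in WT, and the diamond lies above the other WT RV arrays for Gpihbp1 and Echs1 and below them for Ppargc1a and Lpl.

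Acadvl, the very long-chain acyl-CoA dehydrogenase, read 11.11, 10.93 and 11.16 in WT LV and 10.81, 10.80 and 10.85 in KO LV. It read 11.62, 11.52 and 11.45 in WT RV and 11.10, 11.19 and 11.12 in KO RV. The genotypes did not overlap in either ventricle. The difference was -0.25 in LV (SE 0.09, limma adjusted p = 0.0412) and -0.39 in RV (SE 0.09, adjusted p = 0.0127). The left one passed in 1 of 6 fits with an array left out, the one without WT LV replicate 2 (adjusted p = 0.0235), and the right one in 5 of 6, failing without KO RV replicate 1 (adjusted p = 0.056). With the control term the left difference was -0.37 (adjusted p = 0.292), and without WT RV replicate 3 the right one was -0.43 (adjusted p = 0.0143).

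Acadm, the medium-chain acyl-CoA dehydrogenase, read 12.51, 12.47 and 12.50 in WT LV and 12.24, 12.25 and 12.20 in KO LV. The arrays of each group lay within 0.05 of each other, and Acadm was lower in KO LV in every fit with an array left out (-0.26, SE 0.07, limma adjusted p = 0.0133). RV values were 12.65, 12.70 and 12.62 for WT and 12.55, 12.57 and 12.56 for KO. These groups were also apart, but the difference of -0.10 did not pass (adjusted p = 0.413). The control term left it at -0.32 in LV (adjusted p = 0.268).

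Acot2, a thioesterase of the mitochondrial matrix, read 10.86, 10.92 and 11.11 in WT LV and 10.56, 10.72 and 10.73 in KO LV. It read 11.34, 11.39 and 11.37 in WT RV and 10.97, 11.11 and 11.21 in KO RV. All WT arrays lay above all KO arrays of their ventricle. The difference was -0.29 in LV (SE 0.09, limma adjusted p = 0.0298), which passed in 2 of 6 fits with an array left out, and -0.27 in RV (adjusted p = 0.092). The control term left the LV value at -0.29 (adjusted p = 0.523).

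Acaa2, a thiolase of mitochondrial beta-oxidation, was singled out after its values were seen because it was lower in both ventricles and had 3 probe sets of like sign. It read 12.06, 12.01 and 12.25 in WT LV and 11.69, 11.73 and 11.76 in KO LV. It read 12.31, 12.26 and 12.28 in WT RV and 11.90, 11.94 and 11.95 in KO RV. The genotypes were well apart in both ventricles, by -0.38 in LV (SE 0.08, limma adjusted p = 0.00365) and -0.35 in RV (SE 0.08, adjusted p = 0.017). The other probe sets gave -0.38 and -0.48 in LV and -0.35 and -0.51 in RV. The left difference was -0.39 with the control term and the right one -0.36 without WT RV replicate 3 (adjusted p = 0.256 and 0.037), so the size of both hardly moved. The right one missed the threshold without KO RV replicate 1 (highest adjusted p of the 6 fits 0.0699).

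The other beta-oxidation genes that were lower in KO LV were Acads, Decr1, Eci1, Eci2 and Hadhb, with differences from -0.56 to -0.23 and no overlap of the groups. Acads, the short-chain acyl-CoA dehydrogenase, differed by -0.56 and Decr1, the dienoyl-CoA reductase, by -0.55 (limma adjusted p = 0.00187 and 0.00174), and both passed in every fit with an array left out. Eci1 (-0.31, adjusted p = 0.0395) and Eci2 (-0.27, adjusted p = 0.0347), isomerases for unsaturated fatty acids, passed in 1 and 2 of 6 such fits, and Hadhb in 0. Acads was -0.32 with the control term, Decr1 -0.23, Hadhb -0.17 and Eci2 -0.07, while Eci1 turned to 0.04, and none passed (adjusted p from 0.494 to 0.941). A second, dimmer probe set of Decr1 gave 0.02. Hadhb, the thiolase subunit of the trifunctional protein, differed by -0.23 (adjusted p = 0.0339), while a probe set nearly as bright gave 0.29 and a dim one -1.19, so its direction is uncertain. Its partner Hadha, whose promoter window is printed above, differed by -0.16 with overlapping groups.

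The 4 beta-oxidation genes that did not pass in LV were Hadha, Acadl, Hadh and Acaa1a. Acadl, the long-chain acyl-CoA dehydrogenase, and Hadh, the short-chain hydroxyacyl-CoA dehydrogenase, had KO arrays that all lay above the WT arrays in LV. Their differences were 0.17 and 0.22 (limma adjusted p = 0.18 and 0.0731). The control term turned the value of Acadl to -0.08 (adjusted p = 0.872) and left that of Hadh at 0.20 (adjusted p = 0.659). Hadh had 2 further probe sets with positive values in both ventricles, and in RV it differed by 0.19 (adjusted p = 0.178). Acaa1a, a peroxisomal thiolase, differed by 0.05 and 0.08, and its second probe set by 0.48 and 0.69.

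Etfa and Etfb encode both subunits of electron transfer flavoprotein, which takes electrons from the acyl-CoA dehydrogenases. Etfa read 12.76, 12.67 and 12.76 in WT LV and 12.27, 12.24 and 12.19 in KO LV. Etfb read 12.43, 12.53 and 12.54 in WT LV and 11.97, 11.85 and 11.94 in KO LV. For both genes every WT array lay at least 0.4 above every KO array. The differences were -0.50 for Etfa (SE 0.08, limma adjusted p = 0.000434) and -0.58 for Etfb (SE 0.10, adjusted p = 0.000809), and both passed in every fit with an array left out. With the control term they were -0.43 (adjusted p = 0.151) and -0.27 (adjusted p = 0.451).

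In the right ventricle Etfa stood at 12.72, 12.68 and 12.77 for WT and 12.55, 12.60 and 12.64 for KO. Etfb stood at 12.47, 12.46 and 12.78 for WT and 12.23, 12.17 and 12.32 for KO. The groups did not overlap for either gene, but neither difference passed (-0.13 and -0.33, limma adjusted p = 0.305 and 0.0512). Without WT RV replicate 3, Etfb differed by -0.23. Etfdh, the oxidoreductase that hands the electrons to ubiquinone, differed by -0.09 in LV and -0.17 in RV and passed in neither.

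Among the regulators, Mlycd, malonyl-CoA decarboxylase, which removes the inhibitor of Cpt1a, read 7.55, 7.67 and 7.96 in WT LV and 7.41, 7.34 and 7.51 in KO LV. The groups were barely apart, and Mlycd was lower in KO (-0.31, SE 0.11, limma adjusted p = 0.0435). It passed in 1 of 6 fits with an array left out and was -0.19 without WT LV replicate 3 (adjusted p = 0.173) and -0.16 with the control term (adjusted p = 0.799). RV values were 7.65, 7.79 and 7.87 for WT and 7.56, 7.55 and 7.67 for KO, which overlap (-0.18, adjusted p = 0.316).

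Ucp3, an uncoupling protein of muscle and heart, had a level near the median of all values. It read 5.99, 6.07 and 6.27 in WT RV and 5.60, 5.81 and 5.59 in KO RV, and was lower in KO (-0.44, SE 0.11, limma adjusted p = 0.0299). It read 5.81, 5.66 and 6.06 in WT LV and 5.70, 5.59 and 5.76 in KO LV, which overlap (-0.16, adjusted p = 0.316, and 0.08 with the control term). The right difference passed in 2 of 6 fits with an array left out and was -0.36 without WT RV replicate 3 (adjusted p = 0.102). Its second probe set, dimmer than the median, gave -0.19 in RV.

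Ppara, the nuclear receptor that fatty acids activate, read 6.93, 7.05 and 7.26 in WT LV and 6.83, 6.79 and 7.00 in KO LV. It read 7.45, 7.38 and 7.11 in WT RV and 7.10, 7.29 and 7.24 in KO RV. The genotypes overlapped in both ventricles and neither difference passed (-0.21 and -0.10, limma adjusted p = 0.187 and 0.596). Its other probe sets gave -0.41 and -0.04 in LV and -0.35 and 0.04 in RV. With the control term the LV difference was -0.51 (adjusted p = 0.222).

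Ppargc1a, the coactivator of mitochondrial biogenesis, read 10.14, 10.29 and 10.10 in WT LV and 9.84, 10.05 and 9.99 in KO LV. It read 10.47, 10.59 and 9.92 in WT RV and 9.85, 10.31 and 9.73 in KO RV. WT RV replicate 3 lay 0.61 below the mean of the other WT RV arrays. Neither difference passed (-0.22 and -0.36, limma adjusted p = 0.361 and 0.192), and without that array Ppargc1a was lower in KO RV (-0.57, adjusted p = 0.0434). Of its 4 other probe sets, all above the median of all values, 3 gave positive and 1 a negative value in LV, from -0.14 to 0.23, so no direction can be given.

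Pdk4, the kinase that restrains pyruvate dehydrogenase when fat is burned, read 8.64, 8.48 and 8.95 in WT LV and 8.80, 9.0 and 9.07 in KO LV. It read 9.18, 9.27 and 9.26 in WT RV and 9.11, 9.24 and 9.25 in KO RV. The genotypes overlapped in both ventricles. The differences of 0.27 and -0.04 did not pass (limma adjusted p = 0.094 and 0.871), and without WT LV replicate 3 Pdk4 was higher in KO LV (0.40, adjusted p = 0.0131).

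**Figure D3:**
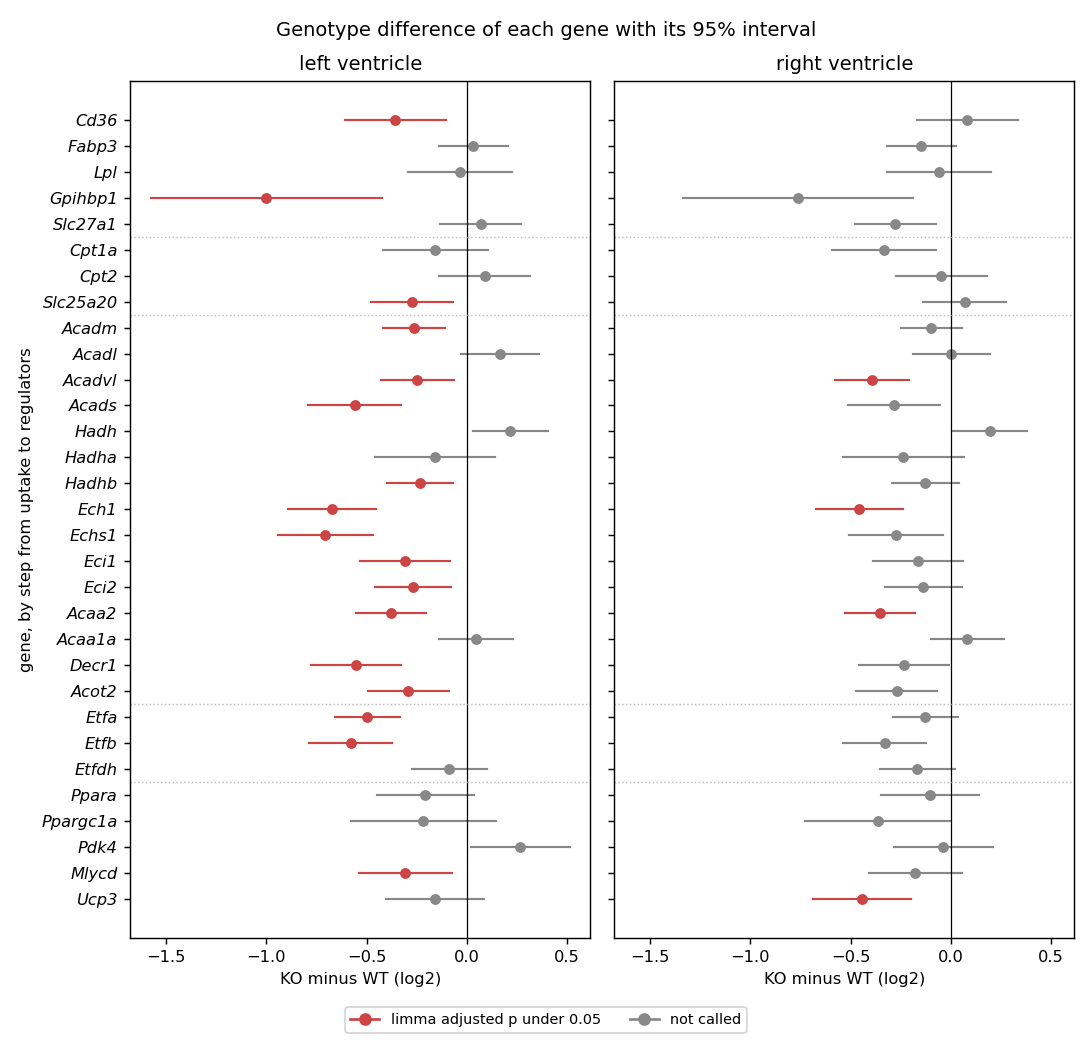
KO minus WT log2 difference of each gene with its 95% interval, in the left and the right ventricle, with genes by step and those past the limma threshold in red. In LV 17 points are red, all to the left of 0 and 11 of them in beta-oxidation, and in RV 4 points are red, Acadvl, Ech1, Acaa2 and Ucp3.

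In the right ventricle 4 of the 31 members were lower in KO (Acaa2, Acadvl, Ech1 and Ucp3) and 0 higher, where 3.58% of all genes were lower and 4.61% higher by limma. At an unadjusted p under 0.05, 13 members were lower and 1 was higher, against 14.5% and 11.4% of all genes. The difference was below 0 for 26 members against 58.4% of all genes, with a median of -0.17 against -0.04. Leaving out KO RV replicate 1 left 0 members lower, where 1.73% of all genes were lower. Leaving out WT RV replicate 3 left 4, with Ppargc1a in place of Ucp3, where 2.26% of all genes were lower and 3.06% higher.

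The groups did not overlap and KO lay below WT for 18 members in LV and 16 in RV, against 20.6% and 17.6% of all genes. KO lay wholly above WT for 2 members in LV and 1 in RV, against 23.8% and 11.8%. Acaa2, Acadvl and Ech1 passed as lower in KO in both ventricles, but the share of all genes that did so was not counted. The ventricles share no array, yet they share the contrast of strains and, in the fit, one estimate of spread. A value below 0 in both ventricles was seen for 22 of 31 members, against 42.3% of all genes.

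Whether the genotype difference itself differed between ventricles was tested as an interaction, in which 0 of 31 members passed (4 of 18194 genes, 0.022%, by limma). At an unadjusted p under 0.05 the right difference was above the left for 5 members and below it for 1, against 4.79% and 9.16% of all genes. The largest interaction values were 0.44 for Cd36 (95% interval 0.08 to 0.80), 0.43 for Echs1 (0.10 to 0.77) and 0.37 for Etfa (0.14 to 0.60), each with adjusted p = 0.314. Without WT RV replicate 3, Echs1 (0.57, adjusted p = 0.0252), Slc25a20 (0.44, adjusted p = 0.0432) and Etfa (0.39, adjusted p = 0.0456) passed, where 2.74% of all genes did in that direction. That fit, with WT RV at 2 arrays, compares WT LV arrays of high labelling control with WT RV arrays of low control.

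**Figure D4:**
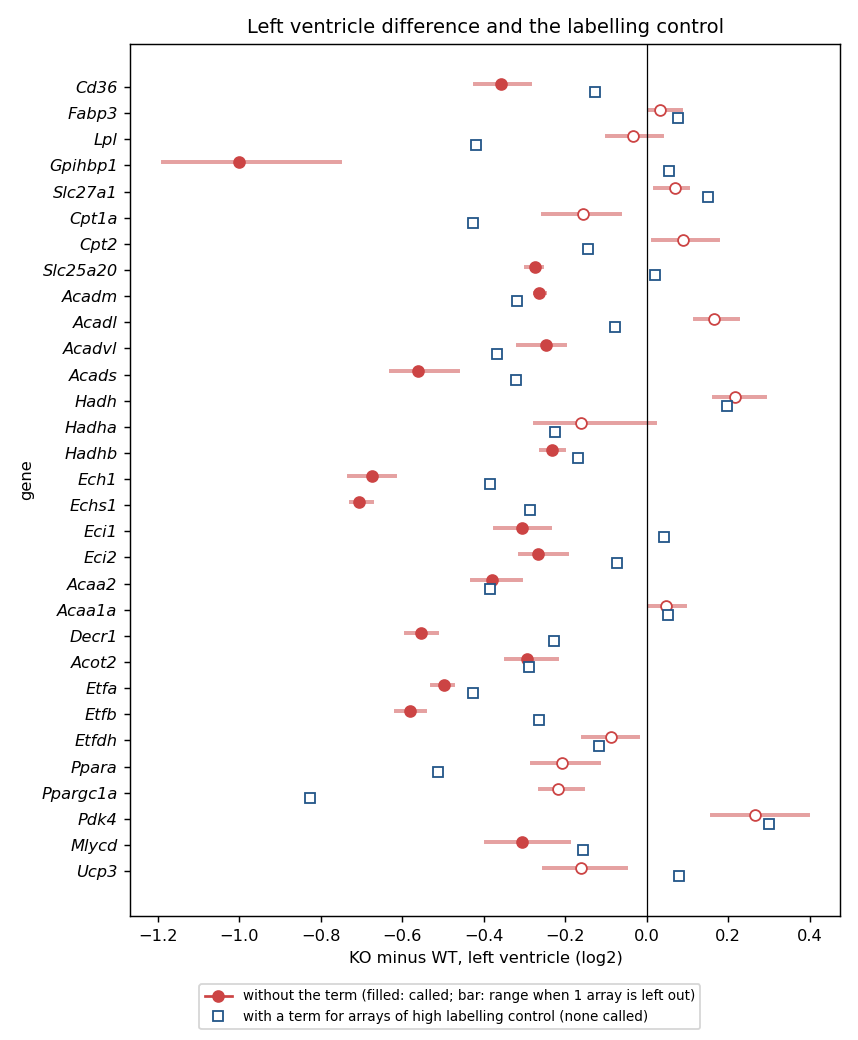
Left ventricular KO minus WT log2 difference of each gene without the control term (red circles, filled where past the limma threshold, with a bar over the values with an array left out) and with it (blue open squares, none past the threshold). Gpihbp1 moves from -1.0 to 0.055, Echs1 from -0.71 to -0.29 and Ppargc1a from -0.22 to -0.83, while Acaa2, Acot2 and Etfa stay close to their values.

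Between the ventricles of WT embryos, 2 of 31 members were higher in RV and 0 lower, where 0.764% of all genes were higher and 0.22% lower by limma. At an unadjusted p under 0.05, 12 were higher and 0 lower, against 11.9% and 5.16% of all genes. Past the adjusted threshold were Acadvl, with a difference of 0.46 (SE 0.09, adjusted p = 0.0207), and Pdk4, with 0.55 (SE 0.11, adjusted p = 0.0382), and the ventricles did not overlap for either. The RV value was above the LV value for 26 members, against 61% of all genes, and RV lay wholly above LV for 11, against 10.9%. The RV mean was also higher for all 16 cardiomyocyte markers and 13 of 17 citric acid cycle genes. It was lower for all 7 epicardial and 6 of 10 fibroblast and valve markers. Leaving out any of WT LV replicates 1 and 2 and WT RV replicates 1 and 2 left 0 members higher, where 0.247% to 0.368% of all genes were. Leaving out WT LV replicate 3 gave 5, against 1.53% of all genes, and the control term gave 0, against 0.104%. Without WT RV replicate 3 there were 6 higher (Lpl, Acadl, Acadvl, Acot2, Etfdh and Pdk4) and 1 lower (Echs1), against 6.43% and 3.11% of all genes. In that fit every WT LV array had a high labelling control and every WT RV array a low one. With the control term Lpl and Acadl each differed by 0.19 and Echs1 by 0.06. Acadvl, Acot2, Etfdh and Pdk4 then differed by 0.38, 0.41, 0.35 and 0.57, and none of these genes passed.

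Between the ventricles of KO embryos, all 6 arrays had low labelling controls. Here 4 members were higher in RV and 0 lower, against 0.55% and 0.594% of all genes, and at an unadjusted p under 0.05 there were 16 higher and 1 lower, against 4.56% and 5.77%. Cd36 differed by 0.63 (SE 0.12, limma adjusted p = 0.0182), Acot2 by 0.43 (adjusted p = 0.0448), Etfa by 0.36 (adjusted p = 0.0327) and Acadm by 0.33 (adjusted p = 0.0412), and none of the 4 overlapped between ventricles. RV lay above LV in the mean for 27 members, against 48.3% of all genes, and lay wholly above it for 21, against 9.24%. All 15 beta-oxidation genes had a higher mean in RV, by 0.07 to 0.43. So did 15 of 17 citric acid cycle genes, 16 of 20 further oxidation genes and 14 of 16 cardiomyocyte markers. All 10 fibroblast and valve markers and all 10 macrophage and leukocyte markers had a lower mean in RV. Of 6 left ventricle markers 2 were lower in RV by limma, and of 8 markers of right ventricle and outflow tract 1 was higher. The part of these markers in the differences was not tested. Leaving out any 1 of the 6 KO arrays left 0 or 1 member past the threshold, 1 without KO LV replicate 2 or KO RV replicate 1 and 0 without any of the others. This comparison shares its arrays with both genotype comparisons.

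Other genes of the pathway were counted by list, with values for the called genes of largest difference. Their counts stand against 18.6% of all genes higher and 12.3% lower in KO LV, and 4.61% and 3.58% in KO RV. Without WT RV replicate 3 the shares of all genes in RV were 3.06% and 2.26%. Of 17 further genes of uptake, activation and carnitine transfer, 2 were higher and 5 lower in KO LV, and 1 higher and 3 lower in KO RV. Angptl4, the secreted inhibitor of lipoprotein lipase, was lower in both (-1.01, limma adjusted p = 0.000477, and -0.83, adjusted p = 0.00542), as was Fabp4, a binding protein of capillary endothelium and fat (-0.66, adjusted p = 0.00314, and -0.50, adjusted p = 0.0409), whose RV value no longer passed without WT RV replicate 3 (-0.41, adjusted p = 0.138). Crat, carnitine acetyltransferase, was lower too, by -0.39 and -0.62 (adjusted p = 0.00527 and 0.000804). Higher were Vldlr (0.40, adjusted p = 0.0197), a lipoprotein receptor, and the acyl-CoA synthetase Acsl3 (0.43, adjusted p = 0.0092) in LV, and Acsl4 (0.41, adjusted p = 0.0397, and 0.31, adjusted p = 0.133, without WT RV replicate 3) in RV.

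Of 20 further oxidation genes 2 were higher and 6 lower in KO LV, and 2 higher and 0 lower in KO RV. Acat1, the acetoacetyl-CoA thiolase (-0.60, limma adjusted p = 0.000258), and Hsd17b10 (-0.59, adjusted p = 0.00247), a mitochondrial dehydrogenase, were lower in LV. Acad11 was higher in both ventricles (0.81, adjusted p = 0.0018, and 0.61, adjusted p = 0.0275), Hsd17b4, the peroxisomal bifunctional enzyme, in LV (0.33) and Oxct1, a ketone body enzyme, in RV (0.31). Neither RV value passed without WT RV replicate 3 (0.41, adjusted p = 0.083, for Acad11 and 0.29, adjusted p = 0.0561, for Oxct1). Of 13 genes of lipid storage and lipolysis 2 were higher and 2 lower in LV, and 1 and 2 in RV. Lpin1, the phosphatidate phosphatase (1.08, adjusted p = 3.18e-05, and 0.92, adjusted p = 0.000227), was higher in both ventricles, and Mgll, monoglyceride lipase (-0.98 and -0.99, adjusted p = 0.00134 and 0.00429), was lower in both.

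Among 23 nuclear regulators and energy sensors 6 were higher and 6 lower in KO LV, and 1 and 1 in KO RV. The mitochondrial deacetylase gene Sirt3 (-0.76, limma adjusted p = 0.000119) and the orphan receptor gene Esrra (-0.57, adjusted p = 0.00113) were lower in LV, and Esrrg (0.99, adjusted p = 0.000569) and the kinase subunit gene Prkaa1 (0.80, adjusted p = 0.00214) were higher. In RV, Sirt3 was lower (-0.39, adjusted p = 0.0237) and Esrrg higher (0.55, adjusted p = 0.0445), and neither passed without WT RV replicate 3 (-0.29, adjusted p = 0.0746, and 0.35, adjusted p = 0.135).

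Of 21 genes of glucose and pyruvate use 6 were higher and 4 lower in LV, and 2 and 1 in RV. The glucose transporter gene Slc2a1 (0.97, limma adjusted p = 9.9e-05, and 0.80, adjusted p = 0.00104) and the hexokinase gene Hk2 (1.35, adjusted p = 0.000165, and 0.76, adjusted p = 0.0177) were higher in both ventricles, but Hk2 in RV did not pass without WT RV replicate 3 (0.58, adjusted p = 0.0694). The muscle enolase gene Eno3 was lower in both (-0.69, adjusted p = 5.47e-05, and -0.43, adjusted p = 0.00381), and Mpc1, of the mitochondrial pyruvate carrier, in LV (-0.64, adjusted p = 0.00817). Of 17 citric acid cycle genes 1 was higher, Cs (0.38), and 6 were lower in LV, led by Sdhc (-0.97, adjusted p = 0.000173) and Suclg1 (-0.51, adjusted p = 0.000642), and in RV 0 were higher and 1 was lower, Sdhc (-0.72, adjusted p = 0.00365). Of 19 genes of mitochondrial import and structure 3 were higher and 3 lower in LV, and 1 and 1 in RV, with Timm44 lower (-0.44 and -0.34) and Mfn1 higher (0.49 and 0.36) in both. Without WT RV replicate 3 their RV values were -0.29 (adjusted p = 0.101) and 0.26 (adjusted p = 0.136). Of all genes in these lists that had passed in LV, Eno3 alone still did with the control term (-0.67, adjusted p = 0.0332), and of those named here Mpc1 (0.05) and Cs (-0.03) changed sign. Angptl4, Crat, Lpin1, Mgll, Slc2a1, Eno3 and Sdhc passed in RV without WT RV replicate 3 as well.

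Marker lists of the cell types of the heart moved with genotype as well, and their counts stand against the same shares of all genes, 18.6% higher and 12.3% lower in KO LV and 4.61% and 3.58% in KO RV. Of 16 cardiomyocyte markers 5 were higher and 0 lower in KO LV, with Myh6 furthest apart (1.76, limma adjusted p = 4.66e-05, and 1.08, adjusted p = 0.0908, with the control term). The mean of the list was 13.28 to 13.31 in WT LV, 13.48 to 13.61 in KO LV, 13.39 to 13.58 in WT RV and 13.60 to 13.69 in KO RV. All 6 endocardial markers passed in KO LV, 5 higher, led by Hapln1 (2.03, adjusted p = 5.4e-05), and Cytl1 lower (-1.48, adjusted p = 2.48e-06), and in KO RV 3 were higher and 1 lower. Their mean was 7.75 to 8.09 in WT LV and 8.54 to 8.82 in KO LV. Of 8 smooth muscle and pericyte markers 5 were higher and 2 lower in KO LV, led by Tagln (1.68, adjusted p = 2.49e-05) and Rgs5 (-1.46, adjusted p = 0.00197), and 1 was higher and 1 lower in KO RV. Their mean was 9.06 to 9.50 in WT LV and 9.34 to 9.41 in KO LV.

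Of 6 atrial markers 4 were higher in KO LV and 2 in KO RV, with 0 lower, at a mean of 7.49 to 7.99 in WT LV and 7.97 to 8.35 in KO LV. Of 10 macrophage and leukocyte markers 8 were higher in KO LV, at a mean of 7.98 to 8.18 against 7.37 to 7.42, and 3 in KO RV. Of 12 fetal liver markers 0 were higher and 2 lower in KO LV, Afp (-2.42, limma adjusted p = 0.0291) and Alb (-2.26, adjusted p = 0.0246), and in KO RV 0 passed. Fetal liver markers averaged 5.62 to 6.87 in WT LV, 4.99 to 5.66 in KO LV, 5.85 to 7.96 in WT RV and 5.50 to 6.31 in KO RV, with WT RV replicate 1 highest. Of 9 skeletal muscle markers 3 were lower in KO LV, at a mean of 6.02 to 6.48 against 6.38 to 6.92, and 1 in KO RV. In KO LV 2 of 10 fibroblast and valve markers were higher and 2 lower, as were 2 and 2 of 8 erythroid markers, and 2 of 7 epicardial markers were higher. Past the threshold in LV with the control term were still Cytl1, Krt19 of the epicardium, Tagln, and the macrophage genes Cd68, Csf1r and Ctss. In KO RV, 1 of 16 cardiomyocyte and 1 of 7 epicardial markers were higher. Lower there were 1 of 10 fibroblast and valve and 3 of 8 erythroid markers. Of 14 endothelial markers, 1 was higher and 1 lower in KO RV. Without WT RV replicate 3, 1 cardiomyocyte, 1 epicardial, 1 endocardial, 1 smooth muscle, 1 atrial and 2 macrophage markers were higher in RV. Lower in that fit were 1 endocardial, 1 smooth muscle, 1 endothelial, 1 fibroblast, 1 skeletal muscle and 2 erythroid markers. Of all genes, 3.06% were higher and 2.26% lower in that fit. The part of these markers in the differences of the fatty acid genes was not tested.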

How the data were processed

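RNA of pooled ventricles (100 ng per array, biotin-labelled) was put on Affymetrix arrays, as the labels' protocols state. The authors deposited log2 values for 45101 probe sets on 12 arrays, and the submitters' processing notes name RMA, a method with background correction and quantile normalization. The RMA version and the genome build were not given in the sources used here, and detection calls were not used. All sample columns were matched to a label, with 0 left over. Quantile normalization gives the probe intensities of all arrays one distribution, so a change common to most genes may not show. The deposited values still had array medians from 5.57 to 5.74.

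Probe sets with 1 symbol in the platform annotation (34958, against 932 with several and 9211 with none) named a gene, each of 18194 genes was represented by its probe set of highest mean, and no filter on dim genes was used. The tests were those of limma (lmFit, eBayes, one mean per group over all 12 arrays) with Benjamini-Hochberg adjustment over all genes at 0.05, and Nos3 also with a two-sided exact permutation test. The fit was tested on simulated data. Alternatives were leaving out dim genes, median centring, an intensity trend with robust variances, the replicate number as a block, the mean of probe sets, the groups compared alone, a term for a mean poly-A control above 8.1, and leaving out each array.

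The members and lists were chosen with earlier results of these data known. Given with every array were Cd36, Fabp3, Lpl, Gpihbp1, Cpt1a, Ppara, Ppargc1a and Pdk4, per step the 2 called members of largest genotype difference in either ventricle, and members called between ventricles; of other lists, up to 2 called genes per direction and comparison were named. Deviations of same-numbered samples from their group means had correlations from -0.19 to 0.42, with 13 of 18 over 0.1. They were 0.21 to 0.291 for KO LV with KO RV and -0.008 to 0.231 for WT LV with WT RV. Differently numbered samples were not correlated, so these values cannot decide whether the numbers pair the samples. The main fit did not take the numbers as pairs, and the replicate block is given as an alternative. Work was done in R 4.3.3 (limma 3.58.1) and Python 3.11.15, with scipy 1.17.1 for the exact test and matplotlib 3.10.9 for figures.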

Additional observations from a re-analysis of the deposited data

How the results depend on the processing

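The members with a value for every array other than Acaa2 had 546 alternative values. Of these, 425 kept their direction and their side of the threshold, 96 kept the direction but no longer passed, 12 newly passed and 13 changed sign. The 425 include values that passed neither in the main fit nor in the alternative, and only values that passed in the main fit could be among the 96. In KO LV, 17 members were lower. The count was 8 with median centring, 0 with the poly-A control term and 8 to 13 with an array left out. Of all genes, 6.66%, 0.346% and 7.81% to 10.2% were lower in these fits, against 12.3% in the main fit. The count of members higher in KO LV, 0, became 1 without dim genes, 2 with median centring, 1 with an intensity trend and robust variances, 2 with the mean of probe sets, and 0 to 2 with an array left out. Of all genes, 28.8%, 23.5%, 19%, 14.3% and 13.7% to 17.8% were higher in these fits. In KO RV the 4 lower members became 2 with median centring, 8 with the replicate block (then also Acads, Acot2, Etfb and Gpihbp1, the last at adjusted p = 0.0234) and 0 to 6 with an array left out. Of all genes, 2.06%, 5.19% and 1.73% to 3.95% were lower in these fits. The 0 higher in KO RV became 1 with the mean of probe sets, where 3.34% of all genes were higher. The replicate block left the KO LV count at 17. For the interaction 0 to 3 members were higher with an array left out. For WT ventricles the 2 members higher in RV became 4 without dim genes, 5 with the trend, 0 with only the groups compared, 0 with the control term and 0 to 6 with an array left out. Of all genes, 1.45%, 0.923%, 0.159%, 0.104% and 0.247% to 6.43% were higher in these fits. With an array left out, 0 to 1 members were lower in RV. For KO ventricles the 4 higher became 1 with median centring, 2 with only the groups compared and 0 to 1 with an array left out. Nos3 in LV was -0.31 with median centring (limma adjusted p = 0.0989), -0.87 with the control term (adjusted p = 0.0635) and -0.45 to -0.37 with an array left out, no longer past the threshold, and passed in RV under every alternative run. Among the members with a value for every array other than Acaa2, the sign changed with the mean of probe sets for Fabp3 (-0.22), Cpt1a (0.32 in LV, 0.036 in RV) and Ppargc1a (0.02). Among all measured members, it changed with the control term in LV for Gpihbp1 (0.055), Slc25a20 (0.022), Eci1 (0.043), Ucp3 (0.08), Cpt2 (-0.145) and Acadl (-0.078), and in RV for Acadl (-0.078). Lpl in LV was 0.06 with median centring and -0.098 to 0.037 with an array left out, above 0 without WT LV replicate 1 or KO LV replicate 3. Lpl in RV was -0.185 to 0.055 with an array left out, above 0 without WT RV replicate 1 or KO RV replicate 3. Pdk4 in RV was -0.065 to 0.0083, above 0 without KO RV replicate 1. Median centring moved the median of all genes by 0.09 in LV and the share of all calls that were higher from 60.1% to 77.9% in LV and from 56.2% to 69.5% in RV. The cause of these changes was not tested, and the fits that leave an array out also hold fewer arrays. Signal over background was not assessed, since detection calls were not used.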
